A study of Mus musculus with 14 samples.

Results

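Pi16+ marrow fibroblasts are stromal cells of mouse bone marrow that carry RNA for peptidase inhibitor 16 and group with the fibroblasts of the sample. Their members were chosen by measured values: a cell belonged to the deposited cluster 2, had at least 500 detected genes and under 10% mitochondrial UMIs (unique molecular identifiers, each standing for 1 captured RNA molecule), and held at least 1 Pi16 UMI. This gave 376 cells of 5381 kept stromal cells, 265 in the wild-type (WT) library and 111 in the PyMT library. Stromal cells were sorted from bone marrow and sequenced one by one with droplet 3' chemistry, in 1 library from WT mouse marrow and 1 from PyMT mouse marrow. The labels name several versions of this chemistry and do not say which either library used, so a difference in version and the genotype cannot be told apart. PyMT mice develop mammary tumours from the polyoma middle T oncogene. The labels give no age, number of animals or sort gate for either library. A second dataset holds bulk RNA libraries of marrow mesenchymal stem cells (MSC), 4 from tumour-free mice and 4 from mice bearing tumours of Py230, a mammary tumour line derived from a PyMT mouse.

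Pi16+ fibroblasts are known from many mouse organs, where they lie in the adventitia around larger vessels and in the fascia, and often carry the surface protease Dpp4 and the stem cell antigen Ly6a. They are regarded as a reserve population of fibroblasts, rich in elastic fibre and hyaluronan genes. In marrow, most stromal cells are instead LepR+ cells, which make the chemokine Cxcl12 and stem cell factor (Kitl) and support blood-forming stem cells. The Pi16 gene lies on chromosome 17, at 29317680 to 29330593 on the plus strand of GRCm38 (mm10), and encodes a secreted or membrane-anchored protein of the CAP family.

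The WT library held 10730286 UMIs in 2508 deposited cells and the PyMT library 16231829 UMIs in 3563 cells; both libraries shared 2 cell barcodes. The Pi16+ cells summed to 1602313 UMIs in WT and 690820 in PyMT, with a median of 5758 and 5927 UMIs per cell. Their Pi16-negative neighbours in cluster 2 had 5447 and 5099. Since each genotype has 1 library, WT and PyMT are described and not tested. Levels are UMIs per 1000000 UMIs (CPM), summed over the cells of a group, and intervals are 95% exact intervals that cover counting error only.

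Pi16 marked the fibroblast cluster and little else. In cluster 2, 265 of 559 WT cells held a Pi16 UMI (47.4%, Clopper-Pearson interval 43.2% to 51.6%), and 111 of 346 PyMT cells did (32.1%, 27.2% to 37.3%). In cluster 0, the LepR+ cells of the sample, the share was 0.614% of 977 WT cells and 0.624% of 2242 PyMT cells, at median depths of 3591 and 4422 UMIs. Cluster 1 stood between, at 3.40% in WT and 1.91% in PyMT. After each cell was thinned to 1500 UMIs, the shares in cluster 2 were 32.1% in WT and 21.2% in PyMT, against 0.327% and 0.278% in cluster 0. The cluster 0 shares are a comparison and cannot be read as stray Pi16 UMIs alone. The highest Pi16 count in a cluster 0 cell was 1 UMI in WT and 9 UMIs in PyMT. A Pi16-negative cell of cluster 2 can also be a cell in which Pi16 RNA was not captured.

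**Figure D1:**
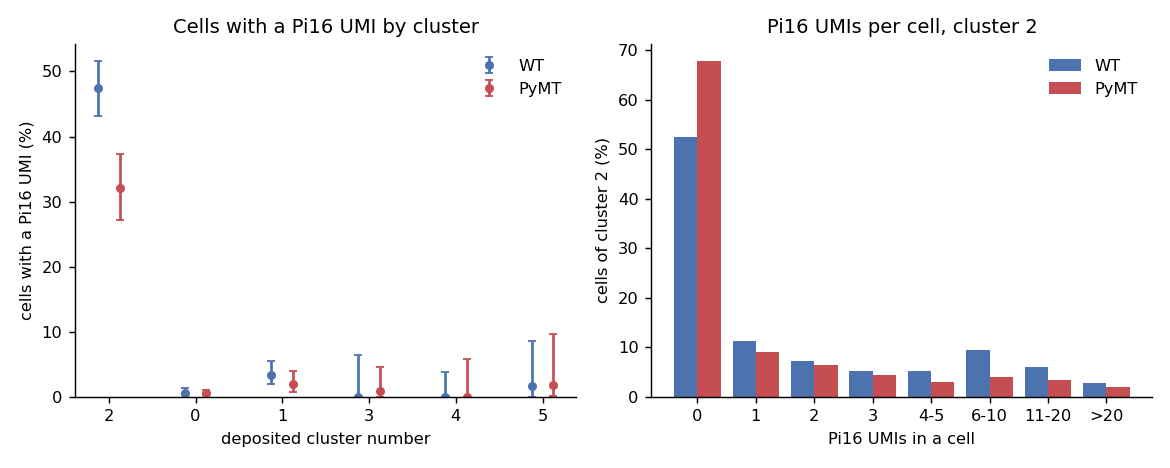
Left, share of kept cells with at least 1 Pi16 UMI in each deposited cluster, with 95% Clopper-Pearson intervals, WT in blue and PyMT in red. Right, share of cluster 2 cells by the number of Pi16 UMIs they hold; the cells at 1 or more are the Pi16+ cells, and 63 WT and 31 PyMT cells sit at exactly 1 UMI.

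Pi16+ cells made up 12.1% of kept WT cells (10.8% to 13.5%) and 3.48% of kept PyMT cells (2.87% to 4.17%). The intervals do not overlap, but they describe 2 libraries and not the genotypes. The Pi16-negative cells of the cluster also had a smaller share in PyMT, 7.36% against 13.4% in WT. The PyMT library held 2242 kept cells of cluster 0 against 977 in WT, so shares of all cells depend on how many LepR+ cells were captured, and the sort that set this is not described. The rule's threshold fell inside a continuous range of counts. Among Pi16+ cells, 23.8% in WT and 27.9% in PyMT held exactly 1 Pi16 UMI, while 49.8% and 38.7% held 4 or more, and the highest counts were 79 and 56. The cells just outside the threshold held none.

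The label was set against the other markers of the population, of which 4 of 5 were higher in Pi16+ cells in both libraries, against 33.0% of all 5779 genes compared. The markers were chosen with earlier results of these data known, so this is no independent check. Of the 5 markers beside Pi16, Sema3c (a secreted guidance factor), Cd55 (a shield against complement), Efhd1 (a mitochondrial calcium sensor) and Procr (the protein C receptor) were the 4. Sema3c stood at 502 CPM in WT Pi16+ cells and 279 CPM in Pi16-negative cells, and at 757 and 386 CPM in PyMT. Cd55 stood at 736 against 445 CPM in WT and 1041 against 661 CPM in PyMT. Efhd1 stood at 224 against 88.1 CPM in WT and 230.2 against 91.7 CPM in PyMT. Procr stood at 185 against 105 CPM in WT and 324 against 137 CPM in PyMT. Ccn3, a secreted matrix signalling protein, did not follow: 1024 against 953 CPM in WT and 1028 against 1244 CPM in PyMT. All 5 were at 15.6 CPM or less in cluster 0, where Ccn3 stood at 0.81 CPM in WT and 3.15 CPM in PyMT. Against cluster 0, Ccn3 thus marked the whole fibroblast cluster and not its Pi16+ cells. Cluster 1 carried more of the markers: with Pi16, the 6 summed to 640 CPM in WT and 702 CPM in PyMT. Their sums were 1870 and 2519 CPM in Pi16-negative cells, and 21.1 and 31.7 CPM in cluster 0.

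In WT the same 4 markers were higher in each step of Pi16 UMIs. Sema3c went from 279 CPM in cells without Pi16 to 300.3 CPM at 1 UMI, 432 CPM at 2 or 3 UMIs and 629 CPM at 4 or more. Efhd1 went from 88.1 to 138, 171 and 291 CPM over the same WT steps, and in PyMT from 91.7 to 152, 194 and 316 CPM. In PyMT, Sema3c was not ordered, with 635 CPM at 1 UMI, 448 CPM at 2 or 3 and 1072 CPM at 4 or more. Cells with at least 3 of the 5 other markers, after thinning to 1500 UMIs, made up 33.1% of Pi16+ and 15.1% of Pi16-negative WT cells, and 39.1% and 15.8% in PyMT. In cluster 0 they were 0% of 918 WT cells and 0.0463% of PyMT cells, and in cluster 1 they were 1.17% and 2.82%. Over the steps of 1, 2 or 3, and 4 or more Pi16 UMIs, these shares were 19.0%, 25.7% and 43.8% in WT. In PyMT they were not ordered, at 45.2%, 27.8% and 44.2%.

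**Figure D2:**
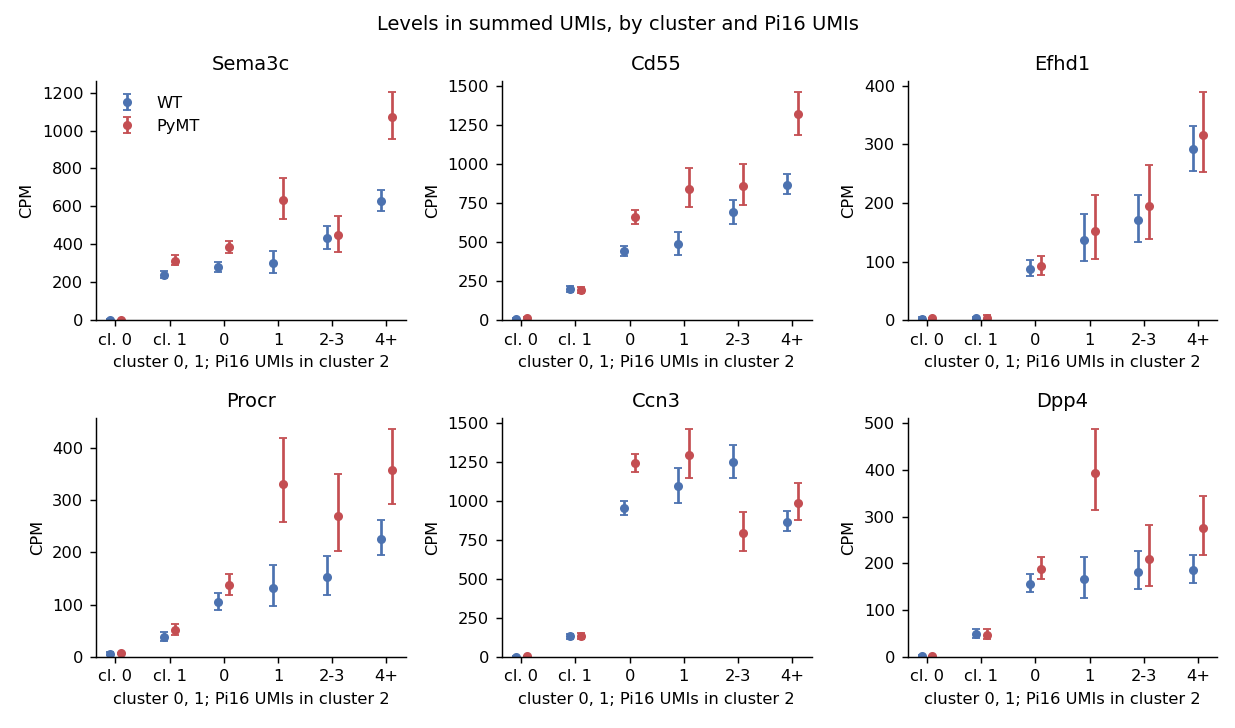
CPM of 5 markers and Dpp4 in clusters 0 and 1 and in cluster 2 cells with 0, 1, 2 or 3, and 4 or more Pi16 UMIs, with 95% exact Poisson intervals, WT in blue and PyMT in red. Efhd1 is higher at each step in both libraries, while Ccn3 is as high in cells with no Pi16 UMI.

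Genes of the universal fibroblast list were higher on the whole in Pi16+ cells. Of 30 members with enough UMIs, 24 were higher in both libraries and 2 lower in both, with median log2 ratios of 0.50 in WT and 0.50 in PyMT. Over all 5779 genes compared, 1909 were higher in both, 1444 lower in both, and the median was 0.03 in each library. As a contrast, Ly6a was close to even between the cell groups, and stood at 2035 against 1882 CPM in WT, and at 13.0 CPM in cluster 0. None of the 30 reached a 2-fold difference in both libraries. Ugdh, which makes the sugar nucleotide for hyaluronan, stood at 685 against 377 CPM in WT and 1264 against 720.1 CPM in PyMT. Cd248, the stromal glycoprotein endosialin, stood at 508 against 289 CPM and 449 against 249.9 CPM. Dpp4, which defines the population in other organs, was close to even in WT, at 180.4 against 157 CPM, and stood at 292 against 189 CPM in PyMT. Some low members, chosen after their values were seen, were concentrated in Pi16+ cells. Dact2, a WNT and TGF-beta modulator, stood at 40.6 against 7.69 CPM in WT and 52.1 against 8.67 CPM in PyMT. Aldh1a3, a retinoic acid enzyme, had 40 UMIs in WT Pi16+ cells against 10 in Pi16-negative cells, and 20 against 8 in PyMT, but at 48.0 CPM in WT and 70.8 CPM in PyMT it was highest in cluster 1. Gap43 had 12 UMIs in WT and 7 in PyMT Pi16+ cells and none in Pi16-negative cells.

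Elastic fibre genes leaned the same way and collagens the other. Of 24 elastic fibre and adventitial matrix genes, 15 were higher in both libraries and 3 lower in both. Mfap5, a microfibril protein, stood at 1792 against 994 CPM in WT and 1183 against 749 CPM in PyMT, and fibrillin-1 (Fbn1) at 1796 against 1087 CPM and 1642 against 1074 CPM. Of 16 collagens, 3 were higher in both and 11 lower in both, with median log2 ratios of -0.34 in WT and -0.40 in PyMT. Col3a1 stood at 3226 against 4510 CPM in WT and 2490 against 5086 CPM in PyMT. The basement membrane collagen Col4a1 stood at 412 against 655 CPM and 339 against 631 CPM. Of 12 genes of hyaluronan and heparan sulfate synthesis, 9 were higher in both libraries and 1 lower in both. Tendon-like Comp and Prg4 were lower in Pi16+ cells, Prg4 at 902 against 1407 CPM in WT and 462 against 901 CPM in PyMT.

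Among all genes, 12 reached a 2-fold higher level in Pi16+ cells in both libraries (0.208% of 5779, Pi16 itself left out) and 15 a 2-fold lower level (0.26%). Because Pi16 chose the cells and the clusters were made from expression, these are descriptions with no test. Igfbp5, which binds insulin-like growth factors, stood at 4496 against 1641 CPM in WT, and the log2 ratio was 1.45 in WT and 1.22 in PyMT. Igfbp4 of the same family stood at 584 against 278 CPM in WT, with log2 ratios of 1.07 and 1.40, while Igfbp3 was among the lower genes, with -1.87 and -1.14. The WNT ligand Wnt10b had log2 ratios of 1.35 and 1.47, and Dact1, a modulator of WNT signalling, 1.26 and 1.08. The other higher genes were Cmah, Efhd1, Cd200, Ston2, Orc3, Slc43a3, Pi15 and H19. Several of the 12 stood higher still in WT cluster 0: Igfbp5 at 10445 CPM, Igfbp4 at 2511 CPM, Cd200 at 102 CPM and Pi15 at 92.9 CPM. Cd200 stood at 30.6 CPM and Pi15 at 38.1 CPM in WT Pi16+ cells. Orc3 was close to even, at 26.2 CPM in WT cluster 0 and 23.7 CPM in WT Pi16+ cells. The rest of the 12 were lower in WT cluster 0 than in WT Pi16+ cells. H19, a noncoding RNA, came from 5 PyMT Pi16+ cells, 1 of which held 27 of 40 UMIs, and without the top cells its PyMT log2 ratio was 0.31 in place of 1.003. Pi15 held 61 UMIs in WT Pi16+ cells and turned to -0.50 in PyMT when cells were thinned to 1500 UMIs.

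The lower genes included matrix and cytoskeletal genes. S100a4, a calcium-binding protein of motile fibroblasts, stood at 834 against 1856 CPM in WT, with log2 ratios of -1.15 in WT and -1.54 in PyMT. Comp, a matrix protein of tendon and cartilage, stood at 310.2 against 709 CPM in WT, with -1.19 and -1.74. The protease Mmp3 had -2.10 and -2.08, the chaperone Clu -1.66 and -1.08, and the WNT inhibitor family member Dkk3 -1.11 and -1.06. Also lower were Nrep, Ndnf, Mamdc2, Cpxm2, Fbln7, Cdh13, Ccdc3 and Stmn2. Tagln, a smooth muscle gene, had -6.57 in WT and -3.83 in PyMT. However, 1 of the WT Pi16-negative cells held 98 of its 100 UMIs, and 1 of the PyMT Pi16-negative cells held 44 of 57.

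**Figure D3:**
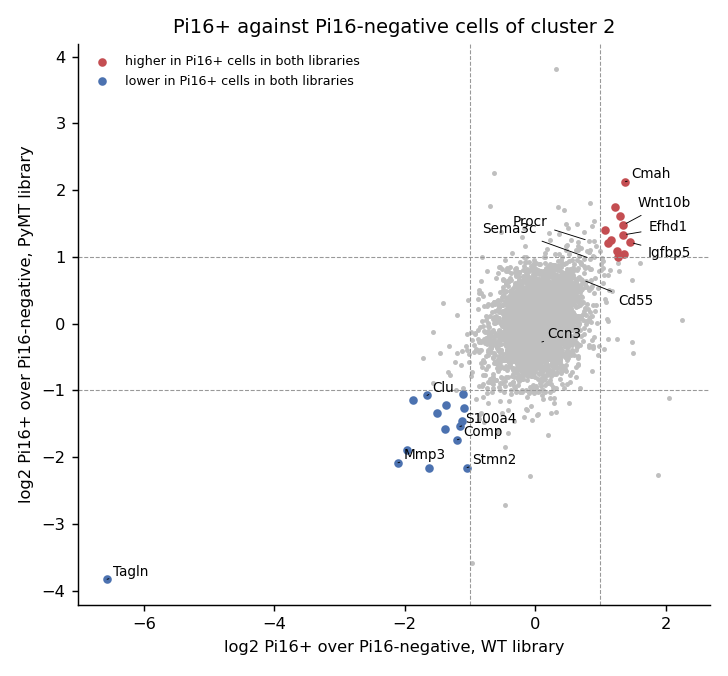
Log2 ratio of CPM, Pi16+ over Pi16-negative cells of cluster 2, in the WT library (x) and the PyMT library (y), for genes with at least 50 UMIs in each library; dashed lines mark 2-fold. The 12 red and 15 blue genes are past 2-fold in both libraries, and Ccn3 lies near the centre.

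Marker lists of other cell types were low in Pi16+ cells. Lepr stood at 188 CPM in PyMT Pi16+ cells, against 2430 CPM in PyMT cluster 0. The LepR+ marker list summed to 2004 CPM in WT and 2280 CPM in PyMT Pi16+ cells, against 36776 and 32073 CPM in cluster 0. The tendon-like list summed to 1687 and 880.1 CPM, against 32646 CPM in WT cluster 1. Of 20 leukocyte markers, 15 were at 0 in WT and 12 in PyMT, Ptprc in both, and the list summed to 8.74 and 40.5 CPM. Of 13 endothelial markers, 7 were at 0 in WT and 6 in PyMT. This list summed to 79.3 CPM in WT and 91.2 CPM in PyMT Pi16+ cells. That was more than in Pi16-negative cells (53.8 and 49.1 CPM) and cluster 0 (43.2 and 60.3 CPM). The 1 endothelial marker with enough UMIs had log2 ratios, Pi16+ over Pi16-negative, of 0.99 in WT and 1.08 in PyMT. The 10 erythroid and megakaryocyte markers summed to 53.7 and 33.3 CPM. Their part in the results that follow was not tested.

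Between the libraries, a broad difference in Pi16+ cells was a higher level of immediate-early genes, the transcription factors and feedback regulators that cells switch on within minutes of a stimulus, handling of the tissue included. Of 30 genes on that list with at least 50 UMIs, 30 were above 0 and 18 were at least 2-fold higher in PyMT, with a median log2 ratio of 1.14. Over all 6044 genes compared, 156 were at least 2-fold higher (2.58%), 85 at least 2-fold lower (1.41%), 58.3% were above 0, and the median was 0.09. Centring the ratios on that median gave 117 higher and 111 lower, and leaving out each gene's top cell in each library gave 120 and 117; the immediate-early genes past 2-fold were 16 and 17. Nr4a1, an orphan nuclear receptor, stood at 129.8 CPM in WT and 569 CPM in PyMT (log2 2.13, interval 1.89 to 2.38), with a UMI in 35.1% of WT and 70.3% of PyMT cells. Nr4a2 stood at 49.3 and 252 CPM (log2 2.35, 1.96 to 2.76) and Nr4a3 at 18.7 and 88.3 CPM (log2 2.24, 1.58 to 2.92). Csrnp1, an early nuclear factor, stood at 19.3 and 75.3 CPM.

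The difference ran through most Pi16+ cells and was shared with their neighbours. The list took a median of 1.72% of a WT Pi16+ cell's UMIs and 3.58% of a PyMT one, and 90 of 111 PyMT cells lay above the WT median. In Pi16-negative cells the medians were 1.84% and 3.81%, and the median log2 ratio of the list was 0.94. In cluster 0 the list stood higher in both libraries, with medians of 4.40% and 7.32%, and a median log2 ratio of 0.82. Heat shock genes differed little in Pi16+ cells, with a median log2 ratio of 0.13, against 0.74 in cluster 0. The labels say nothing of how long each sample was dissociated or sorted, so library preparation and genotype cannot be told apart.

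**Figure D4:**
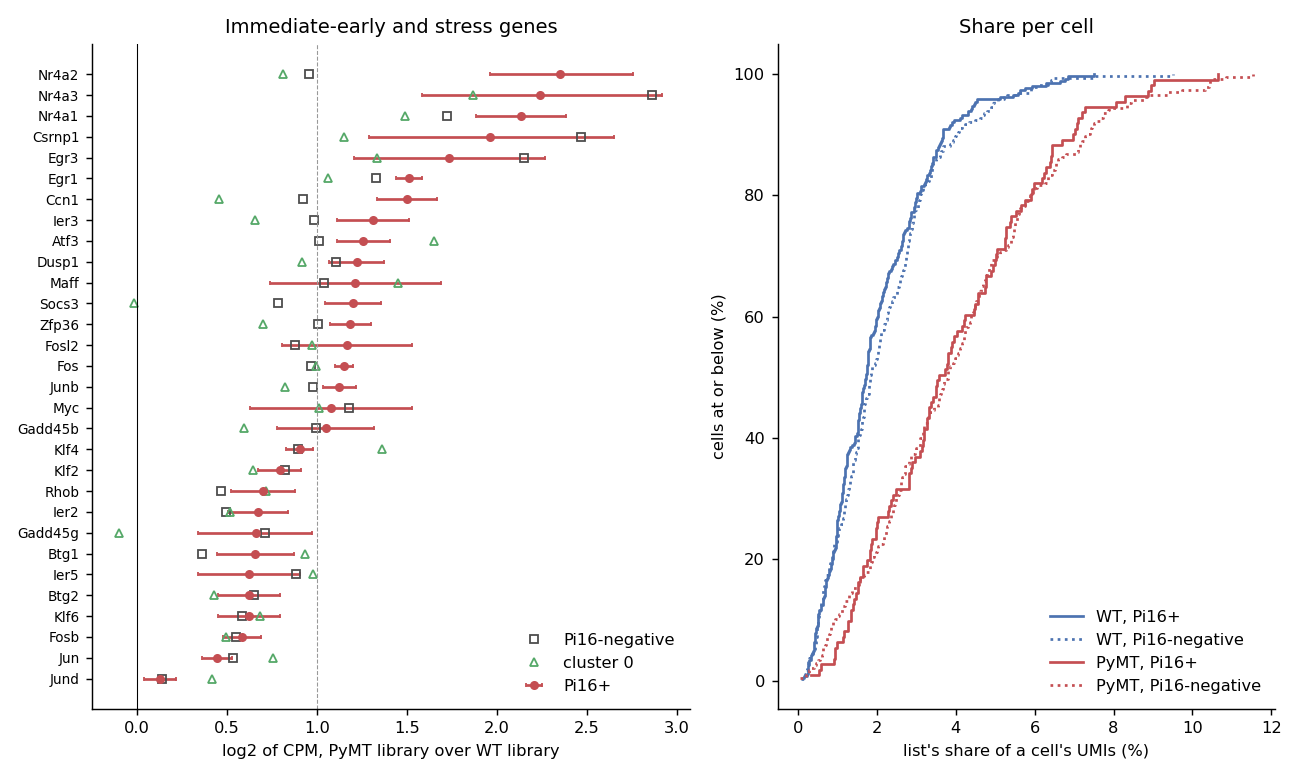
Left, log2 ratio of CPM, PyMT over WT library, of 30 immediate-early and stress genes in Pi16+ cells (red, with 95% exact intervals), Pi16-negative cells of cluster 2 (squares) and cluster 0 (triangles). Right, cumulative share of cells by the percent of their UMIs from the list; over most of the range both PyMT curves lie to the right of the WT curves.

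Promoters are shown for the Nr4a genes and for the hyaluronan synthase Has1, which are among the 15 genes named as highest in the PyMT library. Of the 13 named genes with a promoter, the Nr4a genes held the most half-sites described below and Has1 the only full site. The sequences shown therefore do not stand for the other named genes. The sequences are from RefSeq on GRCm38.p6 and run from 250 bases before to 50 bases after the gene's start. Capitals mark TGACG on either strand, the half-site of the cyclic AMP response element, whose full form TGACGTCA holds a half-site on each strand.
Nr4a1, chr15:101266596-101266895, plus strand: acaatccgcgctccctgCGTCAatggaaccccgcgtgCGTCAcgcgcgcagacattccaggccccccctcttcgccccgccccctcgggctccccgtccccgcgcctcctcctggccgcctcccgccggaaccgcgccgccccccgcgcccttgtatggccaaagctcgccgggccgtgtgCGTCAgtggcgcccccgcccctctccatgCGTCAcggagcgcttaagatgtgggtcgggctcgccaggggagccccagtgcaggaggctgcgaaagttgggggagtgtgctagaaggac
Nr4a2, chr2:57123954-57124253, minus strand: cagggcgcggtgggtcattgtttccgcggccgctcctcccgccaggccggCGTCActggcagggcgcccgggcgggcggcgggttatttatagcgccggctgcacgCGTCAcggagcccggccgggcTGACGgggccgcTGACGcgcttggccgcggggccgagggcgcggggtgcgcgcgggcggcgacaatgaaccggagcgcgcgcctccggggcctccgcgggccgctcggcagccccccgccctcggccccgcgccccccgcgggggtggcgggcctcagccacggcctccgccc
Nr4a3, chr4:48045055-48045354, plus strand: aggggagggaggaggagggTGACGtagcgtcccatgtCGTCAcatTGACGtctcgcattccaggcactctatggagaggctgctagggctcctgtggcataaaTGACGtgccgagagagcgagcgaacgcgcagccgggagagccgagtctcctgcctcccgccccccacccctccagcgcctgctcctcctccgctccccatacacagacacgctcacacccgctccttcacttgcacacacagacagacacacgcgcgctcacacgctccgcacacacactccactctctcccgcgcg
Has1, chr17:17855139-17855438, minus strand: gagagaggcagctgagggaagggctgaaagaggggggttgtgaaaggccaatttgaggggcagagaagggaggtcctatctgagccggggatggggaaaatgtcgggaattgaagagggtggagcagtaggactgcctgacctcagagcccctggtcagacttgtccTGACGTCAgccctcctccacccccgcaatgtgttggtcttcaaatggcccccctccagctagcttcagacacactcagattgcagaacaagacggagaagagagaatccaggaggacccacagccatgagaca
The 3 Nr4a promoters held 4 half-sites each, a number reached by 76 of 32817 promoters of the same length (0.232%). Has1 held 1 full site, as did 588 promoters (1.79%). Of the 15 genes named as highest in PyMT, 13 had a promoter in the table and 8 of them held at least 1 half-site, which 20.8% of all promoters do; a gene can have several promoters. The motif was chosen with the expression values known, and a match is a description of letters and not of binding.

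Secreted signals were among the genes highest in PyMT Pi16+ cells. Interleukin-6 (Il6) stood at 25.6 CPM in WT and 287 CPM in PyMT (log2 3.49, 2.99 to 4.01). Its UMIs came from 18 WT and 23 PyMT cells, 1 of which held 65 of 198, and without the top cells the ratio was 3.27. Ptgs2, the inducible prostaglandin synthase, stood at 84.9 and 375 CPM, and Ptx3, a soluble pattern recognition protein, at 15.6 and 117 CPM. The chemokine Ccl7 stood at 99.9 and 337 CPM, and Cxcl1 at 362 and 798 CPM. Cxcl13, a B cell chemokine, had 2 UMIs in WT and 64 in PyMT (log2 6.21, 4.30 to 9.29), of which 38 came from 1 cell. Of 13 chemokine and cytokine genes, 10 were above 0 (58.3% of all genes were) and 4 at least 2-fold higher (2.58% of all genes). The list's median log2 ratio was 0.45, and 0.87 in Pi16-negative cells. Of 12 NF-kB regulators, 11 were above 0 and 6 at least 2-fold higher, with medians of 0.75 in Pi16+ and 0.31 in Pi16-negative cells, among them the inhibitor Nfkbia at 334 and 789 CPM.

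Spp1 (osteopontin) had 32 UMIs in WT and 314 in PyMT, but 1 PyMT cell held 284 of them, and without the top cells the log2 ratio was 1.42 in place of 4.51. Phex, an endopeptidase of bone-forming cells, stood at 8.74 and 126 CPM, in 9 WT and 15 PyMT cells. Pleiotrophin (Ptn), a niche growth factor, stood at 34.9 and 153 CPM. Cxcl12 itself stood at 959 and 1118 CPM and Kitl at 80.5 and 119 CPM. The remaining genes named as highest were Styx, Thbs1 and the noradrenaline transporter Slc6a2, at 13.1 and 44.9 CPM.

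Matrix genes split by kind. Has1 stood at 281 CPM in WT and 1161 CPM in PyMT (log2 2.04, 1.88 to 2.21), and Has2 at 119 and 256 CPM. Tnfaip6, which modifies hyaluronan, stood at 300.2 and 859.9 CPM. Of 12 hyaluronan and heparan sulfate genes, 9 were above 0 and 3 at least 2-fold higher, with a median of 0.48 against 0.26 in Pi16-negative cells and 0.09 over all genes. Collagens showed no 2-fold difference: 11 of 16 were below 0, with a median log2 ratio of -0.28, and Col6a2 stood at 714 and 465 CPM. Of 23 WNT, BMP and TGF-beta ligands and modulators, 20 were above 0 and 4 at least 2-fold higher, with a median of 0.59 against 0.55 in Pi16-negative cells. Over all genes, 58.3% were above 0 and 2.58% at least 2-fold higher. Sfrp4, a WNT decoy, stood at 509 and 1659 CPM, Sfrp2 at 66.2 and 213 CPM, Dkk2 at 74.3 and 197 CPM, and Bmp2 at 84.9 and 185 CPM.

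TGF-beta response genes, proteases and STAT3 targets also held members past 2-fold. The lists overlap: Socs3 is also on the immediate-early list, and Thbs1 was named above. Of 13 TGF-beta response and myofibroblast genes, 11 were above 0 and 4 at least 2-fold higher, with a median log2 ratio of 0.52, against 0.77 in Pi16-negative cells and 0.09 over all genes. Thbs1, a matrix protein that activates TGF-beta, stood at 112 CPM in WT and 431 CPM in PyMT. Ccn2 stood at 334 and 673 CPM, but 1 PyMT cell held 90 of its 465 UMIs and the log2 ratio without the top cells was 0.77. Of 25 proteases and inhibitors, 18 were above 0, with a median log2 ratio of 0.21, against 0.25 in Pi16-negative cells. Adamts1, a versican-cleaving protease, stood at 199 and 649 CPM. Of 15 STAT3 target and acute phase genes, 13 were above 0, 2 at least 2-fold higher and 1 at least 2-fold lower, with a median of 0.51 against 0.41 in Pi16-negative cells. Over all genes, 58.3% were above 0, 2.58% at least 2-fold higher and 1.41% at least 2-fold lower. The feedback inhibitor Socs3 stood at 439 and 1009 CPM and Cebpb at 127 and 276 CPM, while Serpina3n stood at 53.7 and 26.1 CPM. In cluster 0, Serpina3n had a log2 ratio of 2.95 and Socs3 of -0.02; the difference between the cell groups was not tested.

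Interferon response genes did not lean one way in Pi16+ cells. Of 21 members, 10 were above 0 and 11 below 0, with a median log2 ratio of -0.02. At least 2-fold higher were 2 (2.58% of all genes were), and 1 was at least 2-fold lower (1.41% of all genes). In Pi16-negative cells 16 of the 21 were above 0, with a median of 0.29, and in cluster 0 there were 5, with a median of -0.16. Irf9, a transcription factor of the response, stood at 21.2 CPM in WT and 53.6 CPM in PyMT, and Isg15 at 43.7 and 20.3 CPM.

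The population's own markers differed less. Pi16 stood at 1205 CPM in WT and 1052 CPM in PyMT, a value the rule bounds from below. Procr stood at 185 and 324 CPM (log2 0.81, 0.55 to 1.07), Sema3c at 502 and 757 CPM and Cd55 at 736 and 1041 CPM. Efhd1 stood at 224 and 230.2 CPM and Ccn3 at 1024 and 1028 CPM. None of the 6 reached 2-fold. Of 34 universal fibroblast genes, 22 were above 0, with a median log2 ratio of 0.12, close to the 58.3% and 0.09 of all genes; 1 was at least 2-fold higher and 1, Stmn4, at least 2-fold lower. The higher one was Plpp3, a lipid phosphatase, at 927 and 1883 CPM. Dpp4 stood at 180.4 and 292 CPM.

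The genes lowest in PyMT were mostly of low level. Stmn4, a tubulin regulator of the universal fibroblast list, had 69 UMIs in WT and 8 in PyMT (log2 -1.89, -3.16 to -0.84). Ndufa4l2, a hypoxia-induced mitochondrial protein, had 75 and 9 UMIs. The retinoic acid carrier Crabp2 had 49 and 6, of which 30 WT UMIs came from 1 cell. Others were Gm11808, Prorsd1, Serf1, E130102H24Rik, Hist1h1e, Erh, Ctbp2, Sdf2l1, Stmn2, Supt4a and Hist1h4d. Adipoq, a LepR+ cell hormone, stood at 36.8 and 13.0 CPM in Pi16+ cells and at 1824 and 713 CPM in cluster 0. In Pi16+ cells, 1 WT cell held 22 of the 59 WT UMIs. Without the cells that the doublet finder Scrublet marked, the log2 ratio there was -0.41 in place of -1.50. In PyMT, 76 of 83 oxidative phosphorylation genes and 79 of 80 ribosomal protein genes were below 0, with medians of -0.38 and -0.30, and -0.28 and -0.33 in Pi16-negative cells. Of these, the oxidative phosphorylation genes Ndufa4l2, Ndufa3 and Ndufa1 and 0 ribosomal protein genes were at least 2-fold lower. Over all 6044 genes, 2522 were below 0 and 1.41% at least 2-fold lower. The mitochondrially encoded genes went the other way, with 11 of 13 above 0 and a median of 0.27, and took a median of 3.40% of a WT and 4.05% of a PyMT Pi16+ cell's UMIs. The mitochondrial share is also read as a sign of cell quality, and its part in the other differences was not tested. Gm42418, which overlaps ribosomal RNA and was chosen after its values were seen, stood at 56613 and 20798 CPM in Pi16+ cells and at 72667 and 25199 CPM in cluster 0.

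The bulk MSC libraries, which the rule did not use, test the genes in a second tumour setting. They held 4301375 to 9811251 counted reads. The labels do not say that the libraries came from separate animals, so p-values measure the spread between libraries. In bulk RNA, fewer cells of a type and less RNA per cell cannot be told apart. Adjusted p-values are from edgeR's quasi-likelihood test with Benjamini-Hochberg adjustment over 16317 genes, of which 1.99% rose and 2.74% fell at 0.05.

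The MSC libraries carried LepR+ stromal markers, with a median of 3269 CPM of Lepr in tumour-free and 2942 CPM in Py230 libraries. Ptprc, the leukocyte marker, was at 7.21 CPM or less in all 8, and the endothelial marker Cdh5 reached 20.03 CPM in 1 Py230 library against 4.81 CPM at most in tumour-free ones; its part in the results was not tested.

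Pi16 was barely detected in bulk MSC. Its levels were 0.856, 0.488, 0.741 and 0.581 CPM in the tumour-free libraries and 1.58, 1.23, 2.24 and 4.88 CPM in the Py230 libraries. Every Py230 library lay above every tumour-free one, but on 3 to 22 reads, and the gene stayed below the expression filter and was not tested. Sema3c stood at 1.96, 2.11, 2.96 and 1.60 CPM in tumour-free and 3.83, 3.55, 9.89 and 10.7 CPM in Py230 libraries. The groups did not overlap, and Sema3c rose (log2 1.64, SE 0.42, edgeR adjusted p = 0.0427). Cd55 stood at 10.0, 11.2, 10.7 and 7.55 CPM against 15.3, 21.6, 21.8 and 17.7 CPM. Cd55 also rose without overlap (log2 0.92, SE 0.19, edgeR adjusted p = 0.0153).

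Efhd1, Procr and Ccn3 overlapped between the groups and did not pass the test. Efhd1 had a log2 ratio of -0.17 (SE 0.68, edgeR adjusted p = 0.947), Procr -0.27 (SE 0.56, edgeR adjusted p = 0.895) and Ccn3 1.35 (SE 0.84, edgeR adjusted p = 0.495). Of 32 tested genes of the universal list, 1 rose and 1 fell. Axl, a receptor tyrosine kinase, rose from 55.2 ± 5.07 to 89.2 ± 22.2 CPM (SD, n = 4; log2 0.63, edgeR adjusted p = 0.0283). Ugdh fell from 98.8 ± 7.10 to 70.9 ± 6.31 CPM (SD, n = 4; log2 -0.52, edgeR adjusted p = 0.0111), whereas in Pi16+ cells it stood at 685 CPM in WT and 1264 CPM in PyMT. Over both lists 26 of 37 genes were above 0, with a median log2 ratio of 0.53. Over all genes tested, 8940 of 16317 were above 0, with a median of 0.04. Both lists were chosen with earlier results of these data known. Leaving out single libraries lost Sema3c in 6 of 8 cases (edgeR adjusted p up to 0.15), Axl in 6 (up to 0.111), Cd55 in 3 (up to 0.0625) and Ugdh in 2 (up to 0.0514).

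**Figure D5:**
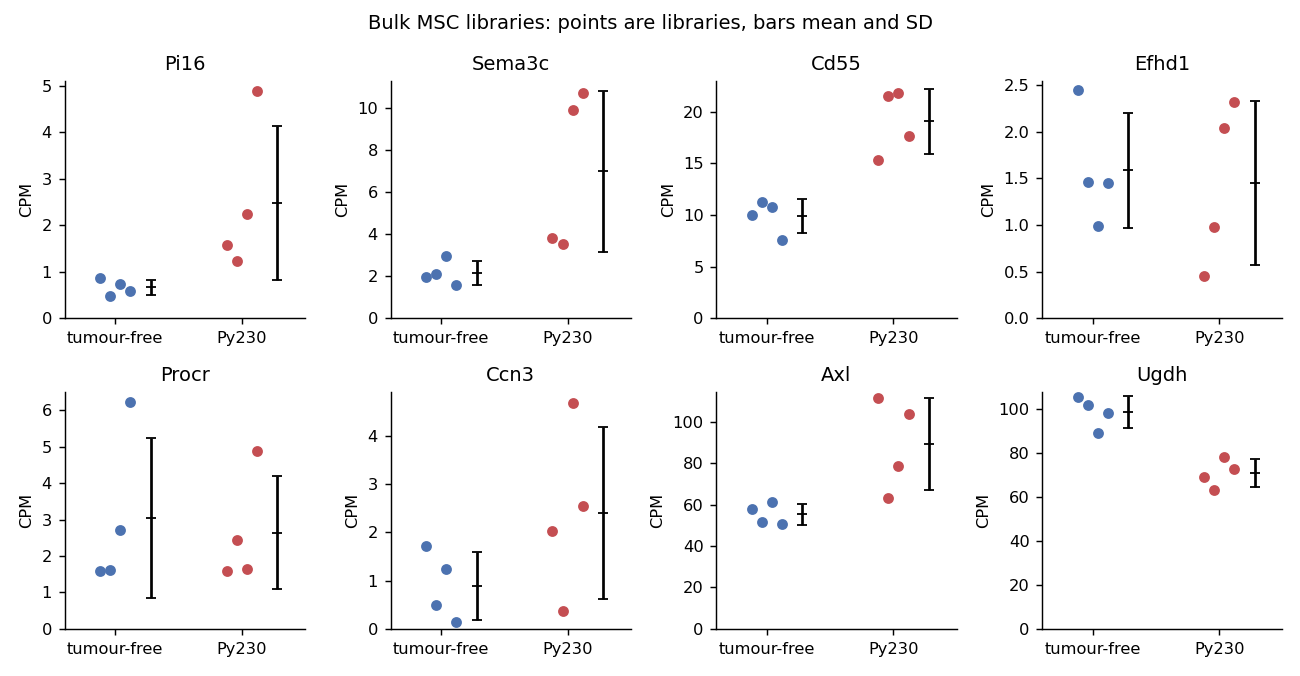
CPM in 4 tumour-free and 4 Py230 bulk MSC libraries of the 6 markers, Axl and Ugdh; points are libraries and bars the mean and SD. Pi16, Sema3c, Cd55 and Axl are higher in every Py230 library than in any tumour-free one, and Ugdh is lower.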

How the data were processed

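The deposited stromal tables are raw UMI counts for each gene in each cell, per the file headers, and the deposited metadata give each cell's mitochondrial share as a fraction and its cluster number. The bulk MSC values, as deposited, are whole read counts for Ensembl gene IDs. Cell Ranger 6.0.0, STAR 2.5.3a, Trim Galore and the build mm10 are named in the submitters' processing notes; the read counter, its strand setting, the annotation and the clustering method were not given in the sources used here. Groups follow the labels' titles and genotypes. Blood-forming progenitor libraries were not used here.

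The limits of 500 genes and 10% mitochondrial UMIs left 2190 of 2508 WT and 3191 of 3563 PyMT cells. Scrublet (through scanpy 1.11.5) marked 30 WT cells and 4 PyMT cells, the latter 0.125%; marked cells were left in. UMIs were summed per library and cell group, genes needed 50 UMIs, and a call is a 2-fold ratio, in both libraries for Pi16+ against Pi16-negative cells. Bulk libraries were fitted with edgeR 4.0.16 in R 4.3.3 (TMM, filterByExpr, robust quasi-likelihood); the SE is the log2 ratio over the root of F. Ccn3 carries its older name Nov in the bulk annotation and was matched by gene ID. The calculations were tested on simulated data. Alternatives were thinning to 1500 UMIs, other Pi16, cell and UMI limits, per-cell means, centring, leaving out Scrublet-marked cells, a replicate block, DESeq2 1.42.0, RLE factors, no filter and leaving out each library. Leaving out each gene's top cell was added after seeing the data.

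The members and gene lists were chosen with earlier results of these data known. Named genes are the 6 markers, up to 15 called genes in each direction of each comparison by size of the ratio, up to 4 members of each list described with the largest ratios, members named as a contrast for their role, and list members past the bulk test. Some list members are not reported here.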

Additional observations from a re-analysis of the deposited data

Results flagged for a closer look

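Crabp2, the retinoic acid carrier, differed in opposite directions in the Pi16+ and Pi16-negative cells of the fibroblast cluster. Its log2 ratio of PyMT over WT was -1.82 in Pi16+ cells and 2.34 in Pi16-negative cells, where it stood at 8.28 CPM in WT and 41.9 CPM in PyMT. In WT Pi16+ cells 1 cell held 30 of its 49 UMIs, and without the top cells the log2 ratio there was -1.45. PyMT Pi16+ cells held 6 UMIs, in 3 cells. In PyMT Pi16-negative cells 1 cell held 29 of 58 UMIs, and 14 cells held any, so both ratios lean on single cells. The difference between the cell groups was not tested.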

How the results depend on the processing

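In the PyMT against WT comparison, 156 genes were higher and 85 lower. The counts were 61 and 17 after thinning, 368 and 300 with a minimum of 20 UMIs, and 1449 and 689 with no minimum. For Pi16+ against Pi16-negative cells, 12 higher and 15 lower became 5 and 4 after thinning, 35 and 34 at 20 UMIs, and 212 and 93 with no minimum. A lower minimum admits more genes. After thinning, 39 of the 156 higher and 3 of the 85 lower genes were called again. For Pi16+ against Pi16-negative cells, 2 of the 12 and 4 of the 15 were. Thinning to 1500 UMIs cut Pi16+ cells from a median of 5758 UMIs in WT and 5927 in PyMT. A gene can thus drop below the minimum of 50 UMIs, so a call that was not repeated need not be a lost difference. How many genes dropped below the minimum was not tested. Pi15 in PyMT reversed to -0.496 after thinning. Pi16+ shares were 9.22% in WT and 2.51% in PyMT with at least 2 Pi16 UMIs, and 8.77% and 2.40% after thinning. The median log2 ratio of immediate-early genes ranged from 1.01 to 1.18 over 9 alternatives. Of the alternative values for single named genes, 254 stayed and 13 moved in PyMT against WT, and 515 stayed, 38 moved and 1 reversed in Pi16+ against Pi16-negative cells.

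In bulk MSC, 3 list genes rose and 1 fell; 7 rose with no filter and 6 with DESeq2. Leaving out single libraries gave 0 to 3 genes higher and 0 to 1 lower, and log2 ratios of -0.484 to 0.127 for Efhd1, including 0.0955, and of -0.693 to 0.329 for Procr; neither gene passed the test. The labels do not say whether the replicate numbers pair the libraries. Deviations of same-numbered libraries correlated at -0.385, -0.126, -0.2 and 0.0151. These values were not set against other pairs of libraries, so they do not decide the question. With the replicate block, 2 genes rose and 0 fell: Cd55 passed (edgeR adjusted p = 0.039), Sema3c (0.115), Axl (0.0545) and Ugdh (0.0629) did not, and the other gene was not among the 3. The 1 library per genotype limits every single-cell comparison, and counting intervals do not cover differences between animals.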
